A study of Mus musculus with 4 samples.

Results

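For each gene, the change of its transcript signal in miR-146a knockout (KO) monocytes relative to control (WT) monocytes was set side by side in the Ly6Clow and the Ly6Chigh subset of the mouse spleen. The quantity described is the difference between the KO effects, that is log2(KO/WT) in Ly6Clow minus log2(KO/WT) in Ly6Chigh, so that a positive value means a higher KO effect in Ly6Clow. Probe sets with a signal of at least 100 on both arrays of at least 1 subset were kept, which left 12982 of 45101 probe sets, and they stood for 7086 of 18194 genes. Of these genes, 6262 had a signal of at least 100 on all 4 arrays and are called expressed in both subsets. Another 95 genes were near background in 1 subset: 30 were expressed in Ly6Clow and near background in Ly6Chigh, and 65 the other way round. The remaining 729 genes had an intermediate signal in 1 subset.

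The 4 groups were Ly6Clow monocytes of KO mice, Ly6Clow monocytes of WT mice, Ly6Chigh monocytes of KO mice and Ly6Chigh monocytes of WT mice, with 1 array each. KO mice carried the genotype miR-146a-/- on the strain B6(FVB)-Mir146tm1.1Bal/J, and WT mice were C57BL/6, called control littermates in the source labels. Spleen cells that carry CD11b were collected on magnetic microbeads and then sorted on a flow cytometer by their Ly6C staining, and each array received material pooled over several mice. The sources used here give neither age nor sex of the mice, and name no Cre line or cell type that would limit the deletion. The protocol text names a pair of red cell lysis buffers (RBC and ACT) and can be read as 1 for each genotype, in which case buffer and genotype cannot be told apart. Since each group had 1 array, no difference below has a replicate, an error or a test, and the values describe these arrays.

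MicroRNA miR-146a is induced by NF-kB signalling in myeloid cells and represses Traf6 and Irak1, which relay signals of Toll-like and interleukin 1 receptors, so that it acts as a brake on inflammatory gene expression. Ly6Chigh monocytes are the classical subset that enters inflamed tissue, and Ly6Clow monocytes are the subset that patrols the inner surface of blood vessels. Ly6Chigh monocytes can convert into Ly6Clow monocytes, for which the nuclear receptor Nr4a1 is needed. The deleted microRNA has a relative with the same seed, which is shown with it because the pair would pair with the same seed sites. The mature sequences are those of RefSeq on build GRCm38.p6, with the seed (bases 2 to 8) in capitals:
mmu-miR-146a-5p: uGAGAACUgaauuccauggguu
mmu-miR-146b-5p: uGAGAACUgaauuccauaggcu
They lie at chr11:43374435-43374456 on the minus strand and at chr19:46342790-46342811 on the plus strand. Both have 22 bases, share the first 17 and differ at 2 positions. No check of the genotype labels at the deleted gene was made here.

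All 23 Ly6Clow markers on the array had higher signals on both Ly6Clow arrays than on both Ly6Chigh arrays, and 18 of 21 Ly6Chigh markers were higher on both Ly6Chigh arrays, the exceptions being Plac8, Fpr2 and Il6ra. Ccr2, the chemokine receptor of classical monocytes, had signals of 865.3 in KO and 1126.5 in WT Ly6Clow, against 5442.4 in KO and 5788.8 in WT Ly6Chigh. Treml4, a receptor of Ly6Clow monocytes, had 7708.9 in KO and 7616.6 in WT Ly6Clow, against 1237.4 in KO and 1617.2 in WT Ly6Chigh. The monocyte genes Csf1r and Lyz2 had signals no lower than 5343.8 on any array, and their differences between the KO effects were 0.17 and 0.02. The share of probe sets called Present lay between 46.8% and 48.6% per array. Markers of other cells were Present on at least 1 array for 7 of 8 neutrophil, 7 of 9 platelet, 6 of 8 B cell, 4 of 9 NK cell and 1 of 8 T cell genes, for 0 of 6 erythroid genes and for 0 of 9 genes of eosinophils, basophils and mast cells. The Y-linked gene Eif2s3y ranged between 1150.9 and 1274.3 over the 4 arrays and Xist between 16.6 and 22.

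Across the 6262 genes expressed in both subsets, the KO effects were small and only loosely alike. The median KO effect was -0.03 in Ly6Clow and -0.04 in Ly6Chigh, and the median difference between them was 0.01. Gene-to-gene spread of the KO effect was wider in Ly6Chigh, with an SD across genes of 0.201 in Ly6Clow and 0.254 in Ly6Chigh. A KO effect of at least 0.5 in size was seen for 130 genes in Ly6Clow (2.08%) and for 299 in Ly6Chigh (4.77%), and one of at least 1 for 10 genes in Ly6Clow (0.16%) and 14 in Ly6Chigh (0.224%). Of the genes past 0.5, 20 were higher and 21 lower in KO in both subsets, 4 were lower in KO Ly6Clow and higher in KO Ly6Chigh, and 1 went the opposite way. Across genes, the KO effects of the subsets had a Pearson correlation of 0.318 and a Spearman correlation of 0.286. Genes are not independent samples, and the KO arrays of both subsets share the strain, any buffer that went with it and the array design.

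**Figure D1:**
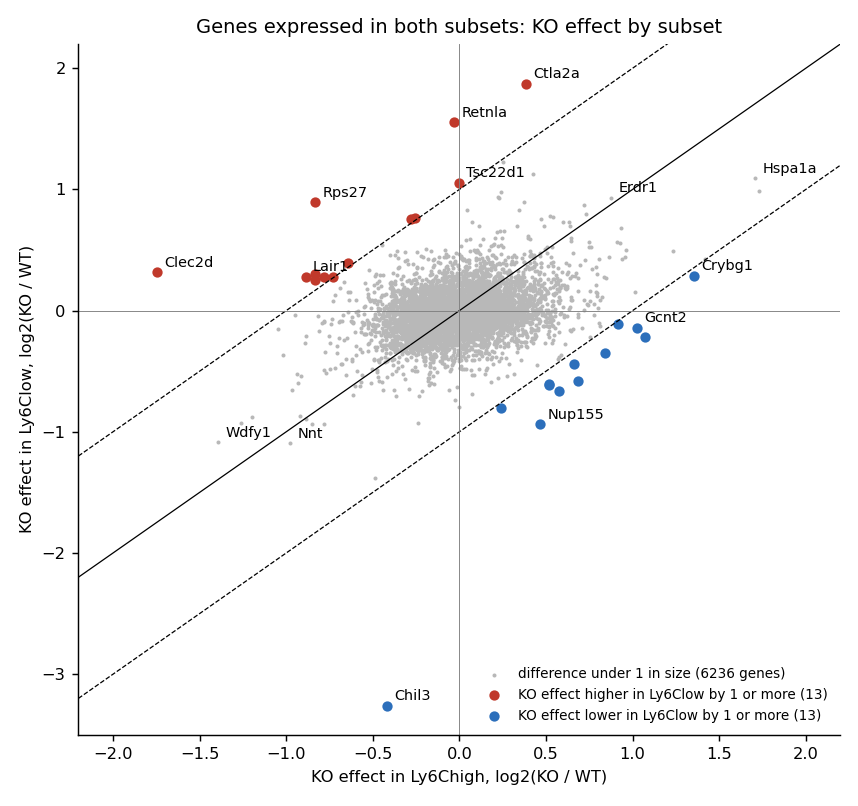
KO effect in Ly6Clow (vertical axis) against KO effect in Ly6Chigh (horizontal axis), both log2(KO/WT), for the 6262 genes expressed in both subsets; each point is 1 gene, the solid line marks equal effects and the dashed lines a difference of 1. The 13 red and 13 blue points lie beyond the dashed lines, Chil3 lies far below the rest at -3.26 on the vertical axis, and Erdr1 and Nnt, at differences of 0.06 and -0.12, lie near the solid line.

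A gene was called when the difference between the KO effects was at least 1 in size, which is 2-fold. Of the 6262 genes expressed in both subsets, 26 were called (0.415%), 13 with a higher KO effect in Ly6Clow (0.208%) and 13 with a lower one (0.208%). Over all 7086 kept genes the count was 63 (0.889%). Of the 26, 23 had KO effects of opposite sign in the subsets. A call made on the difference favours opposite signs by construction, and their share over all genes was not counted. Of the 26, 18 had an effect under 1 in size in both subsets, and 15 had a signal under 500 on their brightest array. Chil3 and Clec2d had the largest differences of the 26. Just outside the threshold lay Il1b at -0.997, Yaf2 at 0.99 and Atp11a at -0.97, and just inside it Frat2 at 1.01, Tbc1d9 at 1.03 and Rprd1a at -1.03. At the smaller threshold of 0.5 in size, 370 genes differed (5.91%), 162 upward (2.59%) and 208 downward (3.32%).

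A pair of alternative macrophage activation genes, Chil3 and Retnla, was called, with opposite signs. Chil3, which encodes the secreted chitinase-like protein Ym1 and marks Ly6Chigh monocytes, had signals of 167.3 in KO and 1603.7 in WT Ly6Clow, against 5932.9 in KO and 7929.9 in WT Ly6Chigh. The KO Ly6Clow array was thus far below the other 3. The gene was 9.59-fold lower in KO in Ly6Clow and 1.34-fold lower in Ly6Chigh, a difference of -2.84, and Ly6Clow stood 35.5-fold below Ly6Chigh in KO and 4.94-fold below it in WT. Chil3 belongs to a family of close copies, and its probes may share signal with them. A further probe set, annotated to several genes and therefore not named, had 76.9 in KO and 670.2 in WT Ly6Clow, against 5697.1 in KO and 9639.6 in WT Ly6Chigh. Retnla, which encodes the secreted protein RELM alpha, ran the opposite way. It had 506.8 in KO and 172.7 in WT Ly6Clow, against 139.8 in KO and 142.6 in WT Ly6Chigh. Only the KO Ly6Clow array was raised, 2.93-fold over WT, and the difference was 1.58. Il4ra, a subunit of the receptor through which interleukin 4 induces both genes, had KO effects of 0.43 in Ly6Clow and 0.94 in Ly6Chigh, and Stat6, the transcription factor it activates, differed by 0.16. Over the 4 alternative activation genes expressed in both subsets, 1 was called upward and 1 downward, against 0.208% of all genes each way, and the median was -0.18. The called members are Retnla and Chil3 themselves. The lists were chosen with earlier results of these data known, so this count is not independent support.

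The promoters of Chil3 and Retnla are shown because interleukin 4 induces both genes and yet their differences had opposite signs. Each stretch runs, per RefSeq on build GRCm38.p6, 250 bases before to 50 bases after the annotated start, and capitals mark matches to the motifs searched:
Chil3 (chr3:106167515-106167814, minus strand): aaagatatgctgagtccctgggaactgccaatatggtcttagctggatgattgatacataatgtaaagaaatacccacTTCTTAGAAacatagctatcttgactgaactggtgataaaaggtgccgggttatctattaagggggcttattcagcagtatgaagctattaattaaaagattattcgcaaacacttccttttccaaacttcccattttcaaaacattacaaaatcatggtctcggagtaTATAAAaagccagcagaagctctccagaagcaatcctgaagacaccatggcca
Retnla (chr16:48842359-48842658, plus strand): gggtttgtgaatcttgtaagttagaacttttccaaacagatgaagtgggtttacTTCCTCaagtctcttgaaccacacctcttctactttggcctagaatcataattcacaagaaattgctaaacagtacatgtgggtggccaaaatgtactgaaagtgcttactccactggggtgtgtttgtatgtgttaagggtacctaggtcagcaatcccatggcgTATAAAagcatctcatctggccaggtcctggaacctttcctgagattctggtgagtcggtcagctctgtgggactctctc
The motifs were searched on both strands, and no match overlaps another. TATAAA was found in both promoters and in 13.6% of 32851 promoters of this length. The STAT-type motif TTCNNNGAA was found in Chil3 and in 8.30% of all. Only this spacing between TTC and GAA was searched, so the lack of a match in Retnla does not cover other spacings. The Retnla stretch does hold ttcacaagaa, with 4 bases between TTC and GAA. How many of all promoters hold that spacing was not counted. The PU.1 core GAGGAA was found in Retnla, on the other strand, and in 28.3% of all. A match is a run of letters, not a binding site, and these arrays hold no binding data.

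Chil3 is also made by neutrophils and their precursors, so the other genes of that list are set beside it. The summed signal of the 10 neutrophil granule and precursor genes was 252.1 in KO and 1708.9 in WT Ly6Clow, against 6414.4 in KO and 8750.4 in WT Ly6Chigh, and most of each sum was Chil3. Of these granule genes, Elane, Ltf, Camp and Ngp were not Present on any array, with signals no higher than 17.4. The other 6 were Present on at least 1 array, among them Prtn3 with 12.1 in KO and 4.4 in WT Ly6Clow, against 151.5 in KO and 198 in WT Ly6Chigh. Ctsg had 21.2 in KO and 50.1 in WT Ly6Chigh, and Lcn2 205.8 in KO and 482 in WT Ly6Chigh. The part of neutrophils or their precursors in the Chil3 values was not tested. Of the 8 neutrophil markers on the array, 7 were Present on at least 1 array, and their sum was 1572.9 in KO and 1964.6 in WT Ly6Clow, against 2318.3 in KO and 3439 in WT Ly6Chigh. S100a8, which neutrophils and monocytes both express, was lower in KO in both subsets, with KO effects of -0.87 in Ly6Clow and -1.19 in Ly6Chigh. In sorted and pooled cells, fewer cells of a type and less RNA per cell cannot be told apart.

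**Figure D2:**
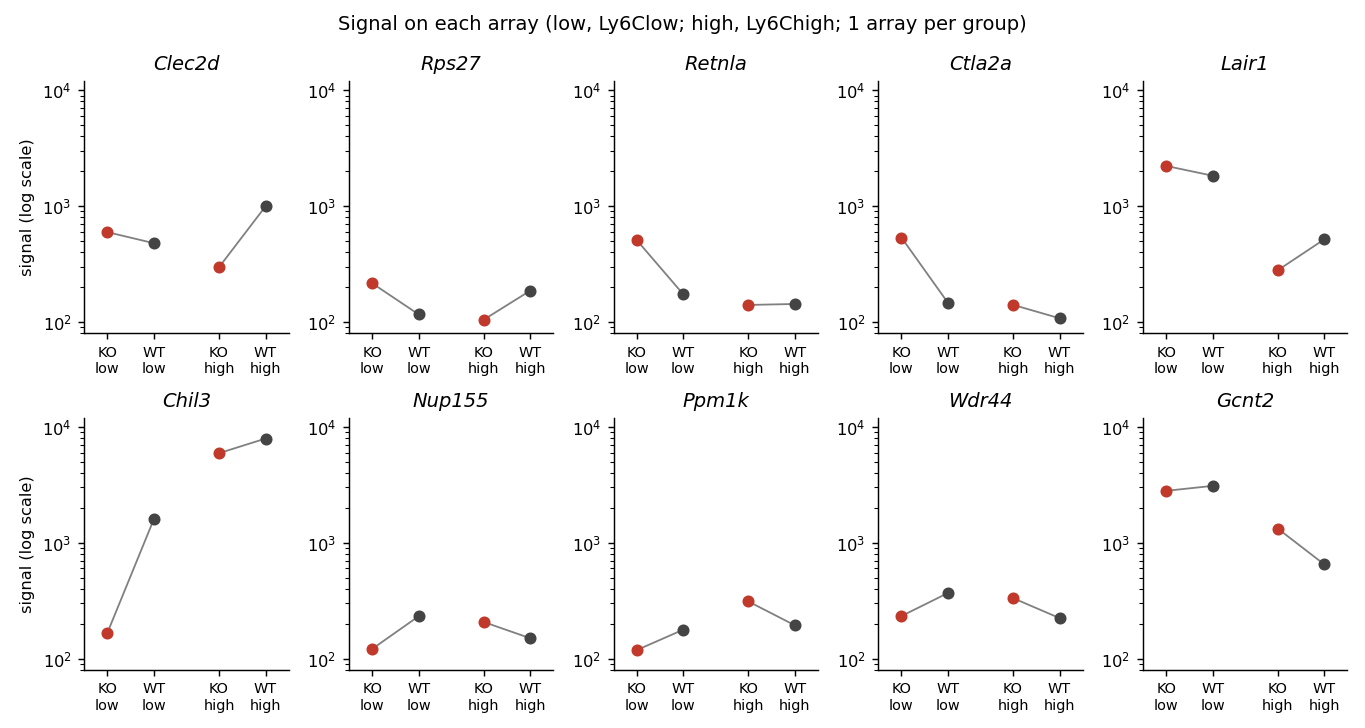
Signal (log axis) of 10 called genes on each of the 4 arrays, KO in red and WT in black, with Ly6Clow on the left and Ly6Chigh on the right of each panel; a line joins KO and WT of 1 subset. The lines slope opposite ways in the subsets for Rps27, Nup155, Ppm1k and Wdr44, and Chil3 is lowest on the KO Ly6Clow array, at 167.3.

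Among surface receptors, the KO effect was higher in Ly6Clow for Clec2d, Lair1 and Fpr2. Clec2d, a C-type lectin-like ligand of NK cell receptors, had signals of 594.9 in KO and 477.1 in WT Ly6Clow, against 296.3 in KO and 993.9 in WT Ly6Chigh. It was 3.35-fold lower in KO in Ly6Chigh and 1.25-fold higher in Ly6Clow, a difference of 2.06. The subset order turned over with genotype: Ly6Clow minus Ly6Chigh was 1.01 in KO and -1.06 in WT on the log2 scale. Lair1, an inhibitory receptor for collagen, had 2218.4 in KO and 1826.4 in WT Ly6Clow, against 278.5 in KO and 514.8 in WT Ly6Chigh, a difference of 1.17. Its other 2 kept probe sets lay at 0.70 and 0.84, on the same side. Fpr2, a receptor for formylated peptides, had 2792.9 in KO and 2128.8 in WT Ly6Clow, against 1193 in KO and 1864.4 in WT Ly6Chigh, a difference of 1.04. For Lair1 and Fpr2 both KO effects were under 1 in size and of opposite sign.

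Ctla2a, which encodes an inhibitor of cysteine proteases, was higher in KO in both subsets but by unequal amounts. Its signals were 533.8 in KO and 145.9 in WT Ly6Clow, against 140.1 in KO and 107.3 in WT Ly6Chigh, so that the KO Ly6Clow array stood alone. The KO effects were 1.87 and 0.38 in Ly6Clow and Ly6Chigh, a difference of 1.49. Endothelial cells also express Ctla2a, and the sum of the 10 endothelial markers was 884.1 in KO and 339.6 in WT Ly6Clow, against 265.3 in KO and 252.6 in WT Ly6Chigh. Ctla2a and Pecam1, an adhesion molecule found on monocytes and platelets too, made up most of it, and Pecam1 had 244.7 in KO and 88.3 in WT Ly6Clow, against 11.8 in KO and 20.4 in WT Ly6Chigh. Of the 10 markers, 6 were Present on at least 1 array. Tek, Tie1, Esam and Cldn5 were not Present on any array, whereas Emcn was Present on every array, with signals between 10 and 21.4. Cdh5, with signals between 10.4 and 12.8, was Present on both WT arrays, and Kdr and Eng on the WT Ly6Clow array alone. Platelet markers summed to 1015.1 in KO and 652.2 in WT Ly6Clow, against 536.6 in KO and 461.4 in WT Ly6Chigh, with 7 of 9 Present on at least 1 array. Ppbp had 267.9 in KO and 97.9 in WT Ly6Clow, against 93.7 in KO and 58.8 in WT Ly6Chigh. Gp9 had 50.5 in KO and 9.8 in WT Ly6Clow and was Present on the KO Ly6Clow array alone. Of the platelet markers, only Itga2b was lower in KO than in WT Ly6Clow, at 93.9 against 106.2. The part of endothelial cells or platelets in the value of Ctla2a was not tested.

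Regulators of transcription with a higher KO effect in Ly6Clow were Tsc22d1, Jdp2 and Cry1. Tsc22d1, a transcriptional regulator that glucocorticoids induce, had 605.4 in KO and 291.5 in WT Ly6Clow, against 490.7 in KO and 492 in WT Ly6Chigh, and differed by 1.06. The WT Ly6Clow array was the low one, and the gene's 3 other kept probe sets lay between -0.49 and 0.78, on both sides of 0. Jdp2, a repressor of AP-1 targets, had 382.2 in KO and 315.1 in WT Ly6Clow, against 111.5 in KO and 191.8 in WT Ly6Chigh, and differed by 1.06. Cry1, a repressor of the circadian clock, had 280.2 in KO and 165.8 in WT Ly6Clow, against 239.5 in KO and 290.8 in WT Ly6Chigh, and differed by 1.04. Rps27, a protein of the small ribosomal subunit, had 215.3 in KO and 115.9 in WT Ly6Clow, against 104.3 in KO and 185.7 in WT Ly6Chigh, and differed by 1.73. All 4 of its signals were low for a ribosomal protein gene, and Rps27 has many processed copies in the genome that could share its probes. The rest of the genes called upward were Smim27 (1.13), AY036118 (1.09), the Rab regulator Tbc1d9 (1.03) and the GSK3-binding Frat2 (1.01).

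Some control probe sets differed between the arrays as well. The 3 probe sets for 18S ribosomal RNA were highest on the WT Ly6Chigh array, with the 5 prime one at 1366.1 in KO and 983.7 in WT Ly6Clow, against 1583.3 in KO and 3562 in WT Ly6Chigh. Their differences between the KO effects lay between 1.37 and 1.64. Of the polyadenylated spike-in controls, DapX (3 prime) read 1620.4 in KO and 1941.3 in WT Ly6Clow, against 907.2 in KO and 1632.1 in WT Ly6Chigh, and differed by 0.59. Its 5 prime probe set differed by 1.04 and that of PheX by 1.14, both past the threshold of 1, and the 3 prime one of LysX by 0.17, the smallest among these controls. The spike-in controls that are added at hybridization differed by 0.08 to 0.40. The part of RNA input and labelling in the values of single genes was not tested.

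Of the 13 genes called with a lower KO effect in Ly6Clow, 11 were higher in KO Ly6Chigh and lower in KO Ly6Clow. The call on the difference favours such opposite signs by construction. Gcnt2, which encodes the branching enzyme of I blood group antigens, was among the brightest, with 2805.3 in KO and 3095.4 in WT Ly6Clow, against 1325.4 in KO and 650.4 in WT Ly6Chigh. It was 2.04-fold higher in KO in Ly6Chigh and 1.10-fold lower in Ly6Clow, a difference of -1.17. Its 5 other kept probe sets lay between -1.21 and -0.51, all on the same side. Crybg1 had 303.9 in KO and 248.9 in WT Ly6Clow, against 546.7 in KO and 214 in WT Ly6Chigh, and differed by -1.07, with a KO effect of 1.35 in Ly6Chigh. Here the KO Ly6Chigh array was the high one. Rgs18, a regulator of G protein signalling in myeloid cells and platelets, had 238.3 in KO and 417.1 in WT Ly6Clow, against 1267.2 in KO and 1072.8 in WT Ly6Chigh, and differed by -1.05, with its other probe set at -0.83.

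For 4 of these genes the KO effects were at least 0.5 in size and of opposite sign. Ppm1k, a mitochondrial phosphatase that activates branched-chain amino acid breakdown, had 118.3 in KO and 177.4 in WT Ly6Clow, against 310.9 in KO and 193.4 in WT Ly6Chigh, a difference of -1.27. Wdr44, a Rab11-binding protein, had 232.7 in KO and 367.8 in WT Ly6Clow, against 332.3 in KO and 223.4 in WT Ly6Chigh, a difference of -1.23. Wasl, the actin nucleation factor N-WASP, and Socs4, a member of the suppressor of cytokine signalling family, both differed by -1.12. Socs4 had 356.3 in KO and 541.8 in WT Ly6Clow, against 525.2 in KO and 366.4 in WT Ly6Chigh. The other 2 kept probe sets of Wasl lay at -0.38 and 0.18, on both sides of 0. Rps27, given above, was the 1 gene with effects of that size the other way.

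The remaining genes called downward include nuclear proteins. Nup155, a protein of the nuclear pore, had 120.9 in KO and 231.7 in WT Ly6Clow, against 206.6 in KO and 149.7 in WT Ly6Chigh, and differed by -1.40, with its other probe set at -0.27. Taf1, the largest subunit of the general transcription factor TFIID, had 352.6 in KO and 448.4 in WT Ly6Clow, against 304.1 in KO and 170 in WT Ly6Chigh, and differed by -1.19. Tcl1b3 differed by -1.29, the RNA-binding Lsm7 by -1.10 and Rprd1a, which binds the tail of RNA polymerase II, by -1.03. Of the 26 called genes, 7 had another kept probe set. In 5 of these 7 every other probe set lay on the same side of 0, and for Gcnt2 another passed the threshold too. Among all 2688 genes with another kept probe set, 54.8% had all of them on the same side.

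The subset order itself turned over with genotype, by at least 0.5 each way, for 7 of the 6262 genes (0.112%). Such a turnover implies a difference of at least 1, so these genes are by construction a part of the 26. Nup155, Wdr44, Wasl and Socs4 were lower in Ly6Clow than in Ly6Chigh in KO and higher in WT. Clec2d, Rps27 and AY036118 were higher in Ly6Clow than in Ly6Chigh in KO and lower in WT. For Rps27 the log2 ratio of Ly6Clow to Ly6Chigh was 1.05 in KO and -0.68 in WT, and for Nup155 it was -0.77 in KO and 0.63 in WT. Clec2d was the brightest of the 7, with 993.9 on the WT Ly6Chigh array, and Socs4 followed with 541.8 on the WT Ly6Clow array.

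Some genes had KO effects of the same sign in both subsets. The stress-inducible chaperone genes Hspa1a and Hspa1b, near-identical copies whose probes can share signal, were higher in KO in both, and more so in Ly6Chigh. Their KO effects were 1.09 and 0.99 in Ly6Clow, against 1.71 and 1.73 in Ly6Chigh, so that they differed by -0.61 and -0.74. Erdr1 had KO effects of 0.93 in Ly6Clow and 0.88 in Ly6Chigh, the insulin-degrading enzyme gene Ide 0.80 and 0.73, and Ccdc69 0.87 and 0.72, in the same order. Lower in both subsets were Wdfy1 (-1.09 in Ly6Clow, -1.39 in Ly6Chigh), Pttg1, which encodes securin (-0.93 and -1.26), and the survival gene Bcl2 (-0.90 and -0.88). Other kept probe sets had differences of 0.57 for Wdfy1, 0.48 and 0.67 for Pttg1, and between -0.20 and 0.75 for Bcl2. Nnt, a mitochondrial transhydrogenase that carries a deletion in the C57BL/6J substrain, had 297.9 in KO and 637 in WT Ly6Clow, against 401.5 in KO and 790.9 in WT Ly6Chigh. Its difference between the KO effects was -0.12. The 5 genes of the strain-sensitive list that were expressed in both subsets had a median difference of 0.06. Of these 5, 0 were called, against 0.415% of all genes.

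Among genes linked to miR-146a itself, none was called. Traf6, the signalling ligase it represses, had 153.3 in KO and 124 in WT Ly6Clow, against 160.6 in KO and 154.6 in WT Ly6Chigh, with KO effects of 0.31 in Ly6Clow and 0.05 in Ly6Chigh. Irak1, the kinase upstream of it, had 1423.7 in KO and 1337.4 in WT Ly6Clow, against 1410.1 in KO and 1493.4 in WT Ly6Chigh, with effects of 0.09 and -0.08, a difference of 0.17. Its 3 other kept probe sets had differences between 0.49 and 0.77, larger than that of the brightest one. Relb, an NF-kB subunit, had effects of 0.26 and 0.02. Of 14 literature targets expressed in both subsets, 0 were called, against 0.415% of all 6262 genes. At that share a list of 14 genes would mostly hold none. Of the 14 targets, 11 lay above 0 and the median was 0.07, where all 6262 genes had 52% above 0 and a median of 0.01. Tlr4 and Camk2d were the lowest at -0.50 and -0.38, and Traf6 was the highest at 0.25.

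Inflammatory genes were spread over both sides of 0. Of 19 NF-kB response genes expressed in both subsets, 0 were called, 2 lay at 0.5 or more, 2 at -0.5 or less, and the median was 0.13. Over all 6262 genes 0.415% were called, 2.59% lay at 0.5 or more and 3.32% at -0.5 or less. At that share of calls, lists as short as those given here would mostly hold none. Il1b, the cytokine gene interleukin 1 beta, had 3740.3 in KO and 2787.9 in WT Ly6Clow, against 2425.7 in KO and 906.1 in WT Ly6Chigh. It was 1.34-fold higher in KO in Ly6Clow and 2.68-fold higher in Ly6Chigh. The chemokine gene Ccl3 leaned the other way, with 384.5 in KO and 176.3 in WT Ly6Clow, against 445.8 in KO and 332.6 in WT Ly6Chigh, a difference of 0.70, and the neutrophil attractant Cxcl2 was at -0.56. The 5 chemokine ligands had a median of 0.25, the 4 chemokine receptors one of 0.20 and the Toll-like receptors with their adaptors one of -0.07 over 15 genes, with 0 called in each. Of 20 interferon response genes 0 were called and the median was 0.03, with the RNA-activated kinase gene Eif2ak2 lowest at -0.72 and Ifit3 highest at 0.53. The 17 immediate early genes had a median of 0.00 and the 14 heat shock chaperones one of -0.03, with Hspa1b lowest.

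Of 7 genes of MHC class II presentation, 0 were called, against 0.415% of all genes, and 2 lay above 0, against 52% of all genes. The median of -0.26 was the lowest of the 26 lists with a median. H2-Eb1, a class II beta chain, had 586.8 in KO and 686.2 in WT Ly6Clow, against 1560.9 in KO and 1165.7 in WT Ly6Chigh, a difference of -0.65. H2-Ab1 differed by -0.45, H2-Aa by -0.41 and the invariant chain gene Cd74 by -0.26. The first 3 had a lower signal in KO than in WT in Ly6Clow and a higher one in Ly6Chigh. Conventional dendritic cells express these genes highly. The sum of 9 dendritic cell markers was 1286.1 in KO and 1376.1 in WT Ly6Clow, against 1829.2 in KO and 1797.5 in WT Ly6Chigh. Wdfy4 was the largest part of each sum. Zbtb46, Xcr1, Ccr7 and Itgae were not Present on any array, and the other 5 were Present on both Ly6Chigh arrays. Of these 5, Cd209a had 291.6 in KO and 185 in WT Ly6Chigh, and Flt3 had 120.5 in KO and 191.6 in WT Ly6Chigh. The part of dendritic cells in the class II values was not tested. B cell markers, which go with class II as well, summed to 3147.4 in KO and 3655.9 in WT Ly6Clow, against 2089 in KO and 2524.6 in WT Ly6Chigh. Ighm made up most of each sum. Pax5 and Blk were not Present on any array, and the other 6 markers were Present on at least 1.

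Markers of the subsets themselves also had unequal KO effects. Over the 16 Ly6Clow markers expressed in both subsets the median difference was 0.20, with KO effects of -0.10 in Ly6Clow and -0.28 in Ly6Chigh. Of these 16, 0 were called, against 0.415% of all genes. Cd36, a scavenger receptor, had 5119.3 in KO and 5503.6 in WT Ly6Clow, against 234.1 in KO and 342.9 in WT Ly6Chigh, a difference of 0.45. Its other kept probe sets lay between -0.54 and 0.15, on both sides of 0. Apoc2 was at 0.42 and Treml4 at 0.40, whereas the chloride transporter gene Slc12a2 was at -0.76 and the phosphatase gene Dusp16 at -0.61. The other kept probe sets of Slc12a2 lay at -0.64 and -0.39, on the same side, but that of Dusp16 lay at 0.69, on the opposite side. Fcgr4, the Fc receptor of Ly6Clow monocytes, had 5390.2 in KO and 5558.9 in WT Ly6Clow, against 460.4 in KO and 811.6 in WT Ly6Chigh, a difference of 0.77. Of the 11 Ly6Chigh markers, Fpr2 was called upward and Chil3 downward, and the median was 0.11. Lpl, lipoprotein lipase, had 530.1 in KO and 682.3 in WT Ly6Clow, against 1349.5 in KO and 2732.2 in WT Ly6Chigh, a difference of 0.65. Among the 45 genes that were at least 4-fold higher in Ly6Clow than in Ly6Chigh on average, the median difference was 0.17 and the median KO effect was -0.04 in Ly6Clow and -0.22 in Ly6Chigh. Among the 46 at least 4-fold lower, the median difference was -0.03.

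The other lists held few members past the threshold. Genes of sterol and lipid handling had a median of 0.17 over 16 members, with the isoprenoid enzyme gene Idi1 at -0.76 and the sterol regulator gene Srebf2 at -0.60. The 22 listed cytosolic ribosomal proteins, which do not include Rps27 at 1.73, lay within -0.04 and 0.27, with 21 above 0, against 52% of all genes. They had a median of 0.13, and median KO effects of -0.09 in Ly6Clow and -0.23 in Ly6Chigh. Most of them were bright, and the brightest quintile of the 6262 genes had a median difference of 0.05 too, with a median KO effect of -0.12 in Ly6Chigh. The part of brightness or gene length in the values of this list was not tested. Coagulation and matrix genes had the highest median, 0.30 over 5 genes, led by coagulation factor X (F10) at 0.59. Glucocorticoid-inducible genes had a median of 0.15 over 12, with Tsc22d1 called and the transcription factor gene Klf9 at 0.88. C-type lectins had one of 0.06 over 10, with Clec2d called, and Fc and complement receptors one of 0.06 over 8. Heme and iron handling had a median of 0.21 over 7, osteoclast differentiation 0.15 over 8, cell cycle 0.06 over 10, glycolysis 0.02 over 13, pan-monocyte markers 0.09 over 12, neutrophil markers 0.12 over 3 and red pulp macrophage markers -0.05 over 3. Of the 38 lists, 11 had a called member in any class, and of the 26 with a median, 21 lay above 0 and 5 below. The remaining 12 lists had too few members expressed in both subsets for a median.

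**Figure D3:**
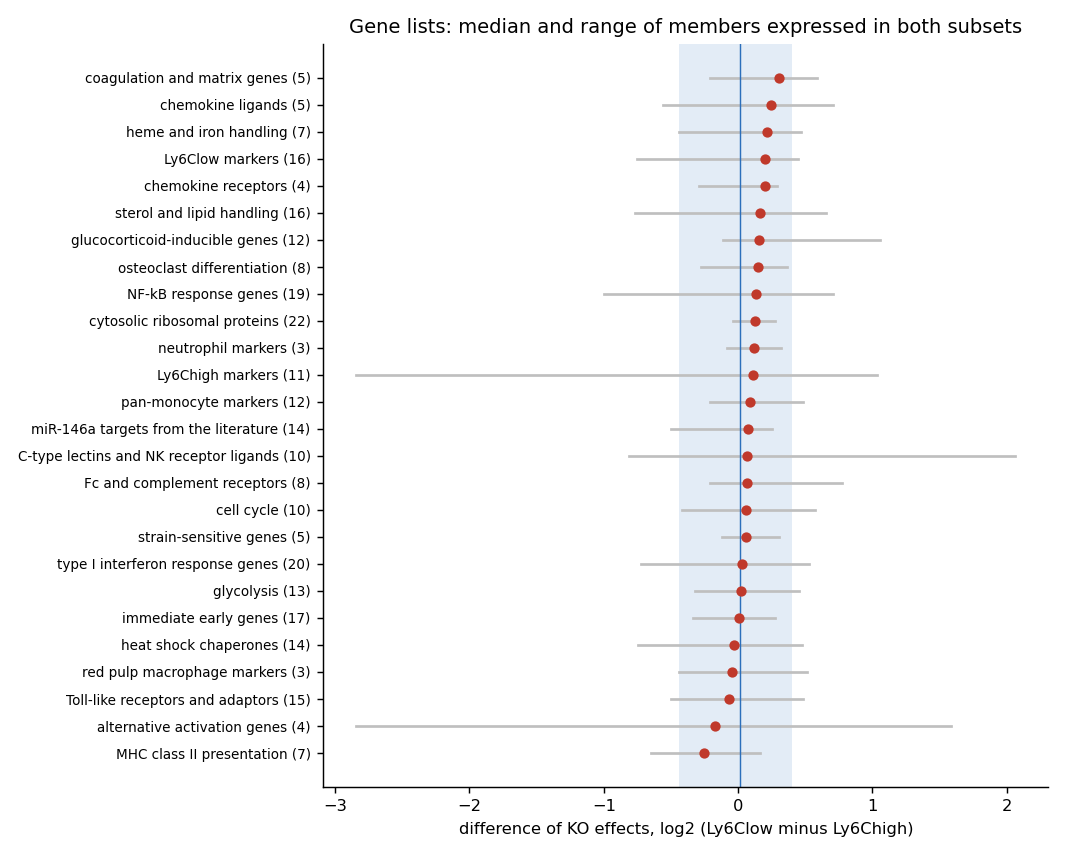
Difference between the KO effects (horizontal axis, log2, Ly6Clow minus Ly6Chigh) for 26 gene lists; the red point is the median of the members expressed in both subsets, the grey bar their range and the number in brackets their count. The blue line and band are the median (0.01) and the 5th to 95th percentile (-0.44 to 0.40) of all 6262 genes and serve as a scale for single members, such as Chil3 at -2.84, not for the medians, which lie between -0.26 and 0.30.

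The length of a gene went with its KO effect in Ly6Chigh and not with that in Ly6Clow. Over 6249 genes with a RefSeq genomic span, the Spearman correlation of span with the KO effect was 0.0006 in Ly6Clow and 0.326 in Ly6Chigh, and with the difference it was -0.311. In the quintile of genes with the shortest span (median 4.74 kb), the median KO effect was -0.04 in Ly6Clow and -0.16 in Ly6Chigh. In the quintile with the longest span (median 103 kb) it was -0.03 in Ly6Clow and 0.08 in Ly6Chigh. The median difference was 0.11 in the shortest and -0.10 in the longest quintile. Of genes at 0.5 or more, 59 fell in the shortest and 16 in the longest quintile, and of genes at -0.5 or less, 23 fell in the shortest and 81 in the longest. The called genes followed the same order, with a median span of 6.03 kb for those called upward and 45.3 kb for those called downward, where all genes had 24.2 kb. The genes of these quintiles share the arrays and their probes, so these are descriptions. The 3 prime to 5 prime signal ratio was 1.23 in KO and 1.42 in WT Ly6Clow, against 1.28 in KO and 1.20 in WT Ly6Chigh, for actin. For Gapdh it was 0.950 in KO and 1.12 in WT Ly6Clow, against 0.905 in KO and 0.894 in WT Ly6Chigh. The part of RNA quality in this relation was not tested.

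**Figure D4:**
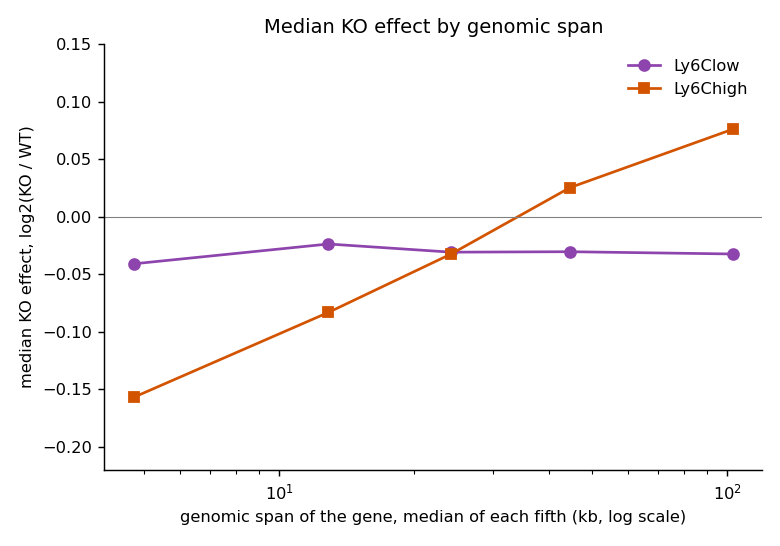
Median KO effect, log2(KO/WT), on the vertical axis against the median genomic span of each quintile of genes in kb on a log axis, for Ly6Clow (purple circles) and Ly6Chigh (orange squares). The Ly6Clow line stays between -0.04 and -0.02, and the Ly6Chigh line climbs with span, with -0.16 in the shortest and 0.08 in the longest quintile.

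Where a gene was near background in 1 subset, the difference rested on dim signals there, so these genes are given apart. Of the 95 such genes, 21 were called (22.1%), 14 upward (14.7%) and 7 downward (7.37%). In the 65 genes expressed in Ly6Chigh, the SD of the KO effect across genes was 1.04 in Ly6Clow, where they were dim, and 0.421 in Ly6Chigh. In the 30 expressed in Ly6Clow it was 0.340 in Ly6Clow and 0.613 in Ly6Chigh, where they were dim. The most positive difference of all, 3.39 for Gpr15, was of this kind: its signals were 8.8 in KO and 0.6 in WT Ly6Clow, against 176.9 in KO and 126.3 in WT Ly6Chigh. Gpr15 was named after its values were seen. The 95th percentile of Absent signals lay between 24.6 and 29.9 on the 4 arrays, above both of its Ly6Clow signals.

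In 3 of the 21 called genes near background in 1 subset, the expressed subset itself had a KO effect of at least 1 in size. Trem2, a lipid-sensing receptor of macrophages, had 153.9 in KO and 318.8 in WT Ly6Chigh, a KO effect of -1.05, and 6.1 in KO and 51.3 in WT Ly6Clow, where it was not Present. Jade2 had 384.7 in KO and 891.3 in WT Ly6Clow, a KO effect of -1.21, and 19.6 in KO and 20.7 in WT Ly6Chigh. Lcn2, the siderophore-binding lipocalin 2, had 205.8 in KO and 482 in WT Ly6Chigh, a KO effect of -1.23, and 19.2 in KO and 18.8 in WT Ly6Clow. The chemokine gene Ccl2, not called at a difference of 0.46, had such an effect too, 1.10 in Ly6Chigh, with 722.7 in KO and 337.8 in WT. The list members Vcan, Clec5a, Prtn3 and Flt3 were expressed in Ly6Chigh, and their differences of 1.81, 2.41, 1.85 and 1.53 rested on Ly6Clow signals no higher than 21.6. For Vcan, a matrix proteoglycan gene, the signals were 10.1 in KO and 1.8 in WT Ly6Clow, against 1989.1 in KO and 1242.2 in WT Ly6Chigh, where the KO effect was 0.68. Ccnd2, a cyclin gene expressed in Ly6Clow, differed by -1.09, with 444.8 in KO and 629.7 in WT Ly6Clow, against 26.1 in KO and 17.3 in WT Ly6Chigh.

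Of the 729 genes with an intermediate signal in 1 subset, 16 were called (2.19%), 6 upward (0.823%) and 10 downward (1.37%). Thbs1, the matrix protein thrombospondin 1, had 35.4 in KO and 31.5 in WT Ly6Clow, against 1351.4 in KO and 590.2 in WT Ly6Chigh, and differed by -1.03, with its other kept probe set at -1.26. Arid5a, an RNA-binding regulator of inflammatory transcripts, had 44.6 in KO and 50.1 in WT Ly6Clow, against 317.6 in KO and 149.4 in WT Ly6Chigh, a difference of -1.26. Both were higher in KO in the subset that expressed them. Itm2a had 171.2 in KO and 212.8 in WT Ly6Clow, against 37.5 in KO and 15.1 in WT Ly6Chigh, and differed by -1.63 through its dim subset. Foxred2 at -1.5, Serpinb8 at -1.16, the membrane repair gene Myof at -1.15 and the cell cycle factor E2f8 at 2.12 likewise had KO effects under 0.5 in size where they were expressed. Tmem181a was at -1.10, Reep4 at 1.28, the sodium channel subunit gene Scnn1a at 1.15, Ip6k3 at 1.05 and Pheta2 and Mtg2 at 1.01 each. The spread narrowed with signal among the 6262 genes: the SD of the difference was 0.304 in the dimmest quintile and 0.208 in the brightest. At the edge of the signal rule, 3.09% of 583 probe sets between 90 and 100 and 1.99% of 503 between 100 and 110 passed the threshold of 1.

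**Figure D5:**
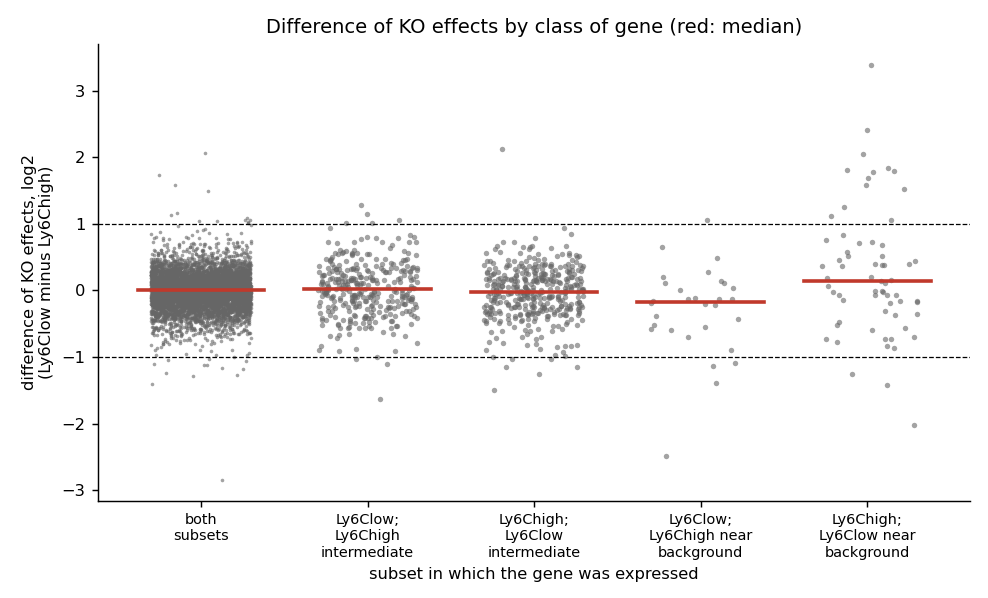
Difference between the KO effects (vertical axis, log2, Ly6Clow minus Ly6Chigh) for every gene in the 5 signal classes on the horizontal axis; each point is 1 gene, the red bar the class median and the dashed lines a difference of 1 in size. The 65 genes at the far right, near background in Ly6Clow, reach 3.39, and the 6262 genes at the far left keep within 0.5 in size for all but 370.

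The authors' deposited table holds their own change calls for KO against WT within each subset. Among the 6262 genes, it called 146 increased (2.33%) and 292 decreased (4.66%) in Ly6Clow, and 561 increased (8.96%) and 693 decreased (11.1%) in Ly6Chigh. It called 76 increased and 116 decreased in both subsets, and 13 in opposite directions (0.208%). Of the 26 genes called here, 17 had a change call in at least 1 subset in the authors' deposited table and 9 had none. Of all 6262 genes, 4775 had none. The change calls and the 26 rest on the same arrays, so the overlap is not independent support. Fpr2 is the only 1 of the 13 opposite genes that is also among the 26. The others, named after their values were seen, include Btla, an inhibitory receptor of lymphocytes and myeloid cells, which had 326.8 in KO and 468.7 in WT Ly6Clow, against 1085.7 in KO and 871.7 in WT Ly6Chigh. Kmt5a, a histone H4 lysine methyltransferase, ran the other way, with 703.6 in KO and 513.2 in WT Ly6Clow, against 670.1 in KO and 868.8 in WT Ly6Chigh. Their differences were -0.84 and 0.83. Pla2g4a, the cytosolic phospholipase A2 that releases arachidonic acid, was at -0.68, and the sugar transporter gene Slc2a6 at 0.63.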

How the data were processed

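Transcripts of 4 groups of sorted splenic monocytes were measured on Affymetrix Mouse 430_2 arrays, 1 array per group, from pooled mice. Per the labels' design text, Expression Console 1.2.1 gave the raw data, and the submitters' processing notes name GCOS. The authors deposited linear signal intensities, and the mean of each array without its lowest and highest 2% was 150.0, so they had scaled the arrays to a common level. The sources used here do not give how probes were summarised. Detection p-values and calls (Present, Marginal, Absent) were deposited by the authors for each probe set and array. The authors' deposited score for each comparison of 1 array with another is a signed fold change, in steps of 0.1 on the log2 scale, with a change call. The deposited value table equalled the signals in all 180404 values.

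Log2 ratios were formed from the deposited intensity without an offset. Genes were named through GEO's platform annotation, with symbols updated by gene identifier through the RefSeq table of GRCm38.p6. Of the kept probe sets, 11440 had 1 symbol, 431 several and 1111 none, and only the first kind was named. The kept probe set with the highest mean signal stood for its gene. A gene was near background in a subset when, on both arrays, its signal lay under the 95th percentile of Absent signals or its call was not Present. The members, the 38 gene lists (25 of pathways and subsets, 13 of other cells) and the rules were chosen with earlier results of these data known.

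Named were the called genes expressed in both subsets (up to 15 each way), up to 8 each way near background with an effect of at least 1 where expressed, up to 6 each way of intermediate signal, and up to 4 called members per list. Genes with effects of opposite sign of at least 0.5, the 5 each way with the largest shared effect, and Traf6, Irak1, Relb, Itgam, Csf1r, Lyz2, Hspa1a and Hspa1b were named too. Other list members are named without a fixed rule, some of them as the ends of their list. Alternatives were an offset of 32, quantile normalization, median centring, subtraction of a lowess trend on signal (fraction 0.3), signal minima of 50 and 200, required Present calls, the mean of all probe sets and a floor at background. Chosen after seeing the data were the authors' deposited fold changes and a lowess trend on genomic span. Calculations used Python 3.11.15, numpy 2.4.6, pandas 2.3.3, scipy 1.17.1, statsmodels 0.14.6 and matplotlib 3.10.9, and the procedure was tested on simulated data. The number of arrays limits the precision.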

Additional observations from a re-analysis of the deposited data

Results flagged for a closer look

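Genes with KO effects of opposite sign in the subsets, each at least 0.5 in size, were picked out among those expressed in both subsets. The difference between the KO effects, Ly6Clow minus Ly6Chigh on the log2 scale, was -1.27 for Ppm1k, -1.23 for Wdr44, -1.12 for Wasl, -1.12 for Socs4 and 1.73 for Rps27. These differences were not tested, because each group had 1 array. From the fold changes in the authors' deposited table the difference was -0.40 for Wdr44, -0.30 for Wasl, -0.50 for Socs4 and 0 for Rps27, all under the threshold of 1, and -1 for Ppm1k, at the threshold. With the mean of all probe sets Wasl was at -0.44.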

How the results depend on the processing

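Of the 26 genes called among those expressed in both subsets, 0 turned to the opposite sign under any of the 11 other settings, though with the authors' deposited fold changes Rps27 and Tbc1d9 were at 0 and Tcl1b3 and Lsm7 at -0.10, and 5 (Chil3, Clec2d, Ctla2a, Retnla and Ppm1k) stayed past the threshold under each setting that gave them a value. The count of 26 was 15 with an offset of 32, 40 with a signal minimum of 50 and 11 with one of 200. With the authors' deposited fold changes, chosen as a setting after seeing the data, it was 9, of which 7 were among the 26, and 20 of the 24 genes called after subtraction of the span trend, also chosen then, were among them. The count of 21 near background was 2 with an offset of 32, 61 with a signal minimum of 50, 9 with one of 200, 3 with a floor at background and 13 with the authors' deposited fold changes. Values of single genes were followed over the settings only for genes named by rule, so not for Gpr15 and others of the 21. Reversed among those followed were Trem2 (0.27 with the floor) and Vcan (-0.35 with the offset, -0.57 with the floor). Clec5a was reversed too (-0.00198 with the offset, -0.22 with the floor). The offset and the floor by construction shrink ratios of dim signals, and the cause of the other moves was not tested. Under a minimum of 200 no value exists for genes that fall below it, among them Ctla2a, Retnla and Ppm1k. No paired analysis was possible because each group had 1 array and the labels give no replicate numbers.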

Other observations

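Some kept probe sets that passed the threshold of 1 were annotated to no gene. The brightest of those with a positive difference had signals of 789 in KO and 503 in WT Ly6Clow, against 66.7 in KO and 157 in WT Ly6Chigh, a difference between the KO effects of 1.88. Another had 126.9 in KO and 105.5 in WT Ly6Clow, against 157.9 in KO and 404.4 in WT Ly6Chigh, a difference of 1.62. A probe set with a negative difference had 529.8 in KO and 532.1 in WT Ly6Clow, against 223.1 in KO and 108.9 in WT Ly6Chigh, a difference of -1.04, where only the Ly6Chigh arrays differed.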
